A study of Sus scrofa with 9 samples.

Results

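The genes described here were 10 metalloproteases of the ADAMTS and ADAM families in the abdominal aorta of Tibetan minipigs. They were chosen by name from the deposited expression table, in which each of the 10 names belongs to a single gene, out of 21357 genes in all. The members were the secreted proteases ADAMTS1, ADAMTS2, ADAMTS4, ADAMTS5, ADAMTS9, ADAMTS12 and ADAMTS15, and the membrane proteases ADAM8, ADAM10 and ADAM17. No expression value set the choice, but it was made with earlier results of these data known.

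As background, ADAMTS and ADAM proteins are zinc metalloproteases that are made as inactive precursors and activated when their prodomain is removed, in many members by furin. ADAMTS proteins are secreted and work in the extracellular matrix, where one subgroup cuts the large proteoglycans aggrecan and versican and another trims the ends of procollagens. ADAM proteins span the membrane and release the outer parts of other membrane proteins, among them cytokines, growth factor precursors and adhesion molecules, and TIMP3 is the tissue inhibitor best known to block both families.

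Libraries from 3 groups of 3 were compared. NC pigs received a normal diet for 24 weeks, H24 pigs a high-fat and high-cholesterol (HFC) diet for 24 weeks, with the label atherosclerosis, and H8 pigs the high-fat diet for 8 weeks, with the label hypercholesterolemia. The pigs were male, and in NC and H24 the sequenced animals were part of a larger group of pigs. No label says whether the 3 H8 libraries came from different pigs, so their p-values measure the spread between these samples, which may be technical. H8 was compared with controls that had been fed for 24 weeks, so diet and length of feeding cannot be told apart in H8/NC. H24 and H8 shared the kind of diet and differed in its length, which cannot be told apart from the age of the pigs. As the libraries are whole vessel wall, fewer cells of a type and less RNA per cell cannot be told apart in any result.

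Total counts ranged from 44094263 to 75787978 per library. H24 replicate 3 stood apart from the rest. Its Pearson correlation with the NC libraries across genes, which are not independent replicates, was 0.843 to 0.845, whereas H24 replicates 1 and 2 had 0.946 to 0.953 with them. The tissue label was checked on marker genes. The summed FPKM (fragments mapped per kilobase of transcript, scaled to library size) of 10 smooth muscle markers was 12139 to 14245 in NC, 10463 to 13962 in H8, and 8383, 12209 and 1789 in H24 replicates 1 to 3. That of 12 macrophage markers was 59.9 to 69.9 in NC, 357, 68.9 and 183 in H8, and 590, 378 and 3019 in H24. No marker of these lists was at 0 in every library. The 7 adipocyte markers, summed because one label names an adipose type, had 96.7 to 170 FPKM in NC, 51.0 to 143 in H8 and 60.9 to 112 in H24. The sums overlap, but single markers differed by the study's thresholds, given below. In H8/NC 4 of 6 tested were down-regulated (2.27% of all tested genes), with a median log2 fold change of -2.03. In H24/H8 5 of 7 were up-regulated (7.22% of all tested genes), with a median of 2.49. In H24/NC 1 of 7 was up- and 1 down-regulated, with a median of -0.72.

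All 10 members passed the filter on low values (an average of 0.1 FPKM or more in the compared libraries) in all 3 comparisons. ADAMTS1 was the most abundant member in each group, with a mean of 108 FPKM ± 39.3 (SD, n = 3) in NC. ADAMTS15 (24.2 ± 6.40), ADAMTS2 (19.9 ± 3.58) and ADAMTS9 (13.6 ± 3.26) followed. ADAMTS15 and ADAMTS2 overlapped in NC, as did the next neighbours in the order, ADAMTS12 (7.74 ± 1.84), ADAMTS4 (6.36 ± 2.85) and ADAM17 (4.94 ± 0.375). ADAM10 (2.47 ± 0.351), ADAM8 (1.49 ± 0.572) and ADAMTS5 (0.600 ± 0.168) were lowest and did not overlap with each other. In H24 each member overlapped with its neighbour in the order except ADAM10 and ADAMTS5, at 3.04 ± 1.36 and 0.750 ± 0.462.

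**Figure D1:**
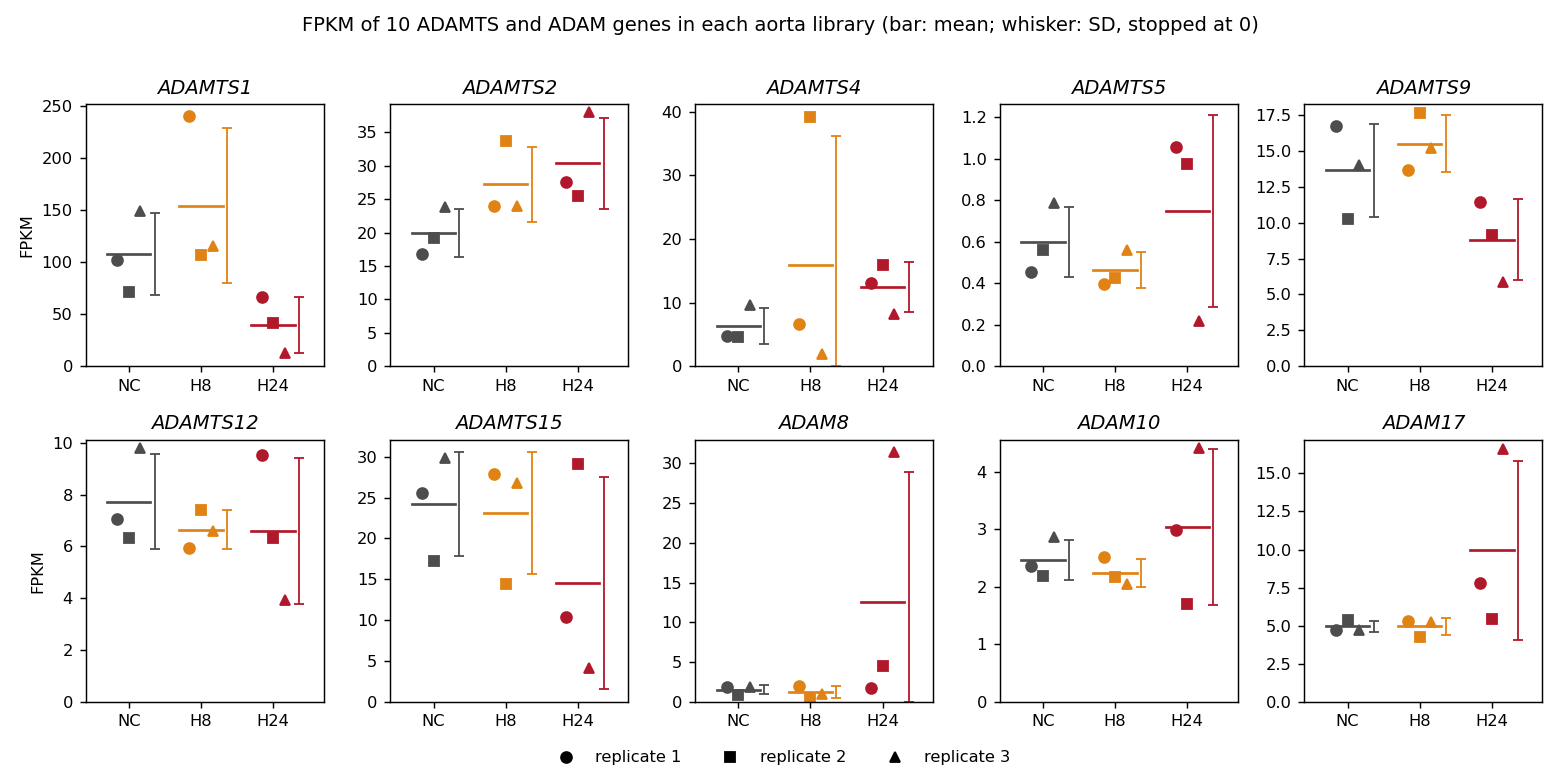
FPKM of the 10 members (linear vertical axes that start at 0) in the 3 NC, 3 H8 and 3 H24 libraries, with the mean as a bar and the SD as a whisker that stops at 0. The 3 ADAMTS1 values of H24 lie below all others, and ADAM8 and ADAM17 are highest in H24 replicate 3, at 31.4 and 16.6 FPKM.

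The study called a gene when its log2 fold change was above 1 or below -1 and its p-value, without adjustment, was under 0.05. By these thresholds 2 of the 10 members differed in H24/NC. ADAM8 was up-regulated, where 9.95% of all 14828 tested genes were, and ADAMTS1 was down-regulated, where 1.52% were. In H8/NC no member passed these thresholds in edgeR or in DESeq2, where 5.11% of tested genes were up-regulated and 2.27% down-regulated in edgeR. In H24/H8 ADAM8 was up-regulated, against 7.22% of tested genes, and ADAMTS1 and ADAMTS9 were down-regulated, against 3.05%. With p-values adjusted by Benjamini-Hochberg and the same limits, no member was called in edgeR's quasi-likelihood test, and the shares of all tested genes called in this way were 0% in H24/NC, 0.0279% in H8/NC and 0.0135% in H24/H8. An unadjusted p-value under 0.05, whatever the fold change, was found for 4 members in H24/NC, where 13.9% of tested genes had one, for 1 member (ADAMTS2) in H8/NC against 14.8%, and for 3 members in H24/H8 against 13.7%. DESeq2 called many more genes by the adjusted rule, 7.05% of those it gave an adjusted p-value in H24/NC, 4.39% in H8/NC and 4.54% in H24/H8. The members among them were ADAM8 in H24/NC (adjusted p = 0.0174), none in H8/NC, and ADAM8 (adjusted p = 0.0214) and ADAMTS1 (adjusted p = 0.0231) in H24/H8.

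FPKM values did not overlap between H24 and NC in 3 members, ADAMTS2 and ADAM17 being higher and ADAMTS1 lower, where 20.6% of tested genes did not overlap. In H8 and NC this held for ADAMTS2 alone, where 22.8% of tested genes did not overlap. In H24 and H8 it held for ADAM17, which was higher, and for ADAMTS1 and ADAMTS9, which were lower, against 21.8%. The median size of the log2 fold change over the 10 members was 0.69 in H24/NC, 0.23 in H8/NC and 0.71 in H24/H8, and over all tested genes it was 0.38, 0.31 and 0.44. With sign, the members' medians were 0.28, 0.09 and -0.12. H24/NC and H8/NC share the NC libraries, and each of them shares a group with H24/H8, so the comparisons are not independent of each other.

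**Figure D2:**
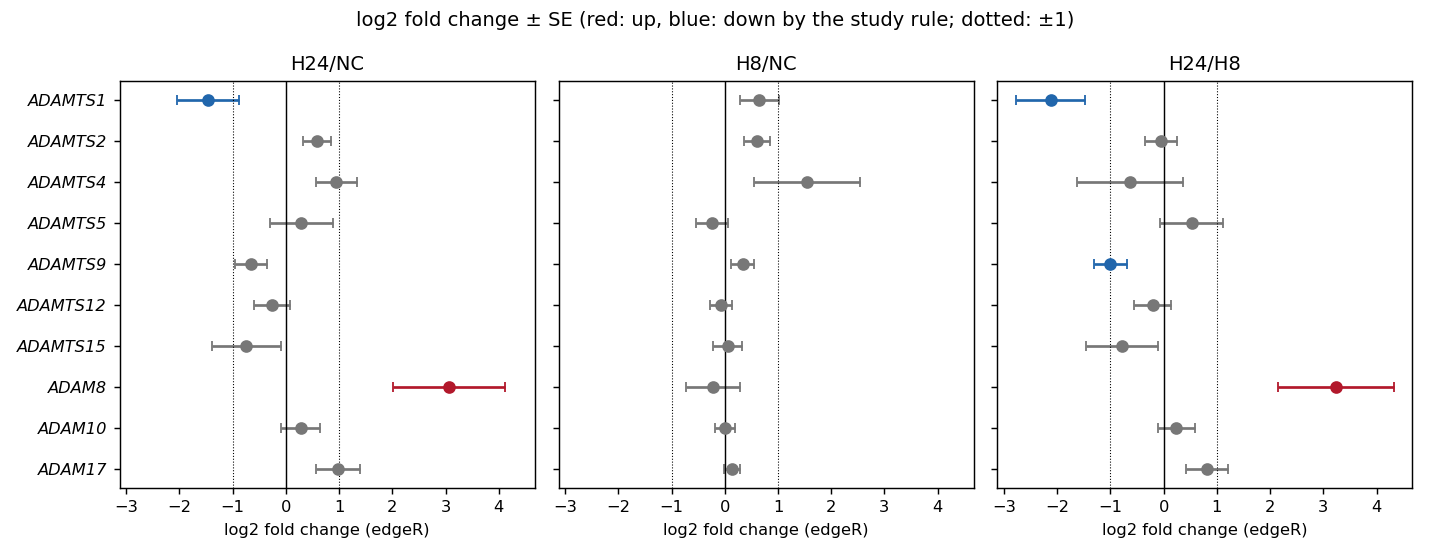
edgeR log2 fold change (horizontal axis) of each member, with its SE as whiskers, in H24/NC, H8/NC and H24/H8. Red and blue mark up- and down-regulation by the study's thresholds: ADAM8 and ADAMTS1 in the first panel, none in the second, and ADAM8, ADAMTS1 and ADAMTS9 in the third.

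ADAMTS1, a protease of aggrecan and versican that is also expressed in the vessel wall, was lower in H24 than in both other groups. It had 102, 71.9 and 150 FPKM in NC, 241, 107 and 116 in H8, and 66.4, 41.3 and 12.3 in H24. Every H24 library lay below every NC and H8 library, whereas NC and H8 overlapped. The log2 fold change was -1.46 (SE 0.59, adjusted p = 0.342, edgeR's quasi-likelihood test) in H24/NC, that is 0.363 times the NC level, and -2.12 (SE 0.65, adjusted p = 0.341) in H24/H8. In H8/NC it was 0.65 (SE 0.37, adjusted p = 0.460). The H24/H8 call held in 16 of 16 alternatives, between -2.65 and -1.68. The H24/NC call was lost with the replicate number as a block (-1.63) and without NC replicate 1 (-1.51), NC replicate 3 (-1.16) or H24 replicate 2 (-1.51), and held without H24 replicate 3, the lowest library, at -1.03.

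ADAMTS9 and ADAMTS15 belong to the same proteoglycan-cutting subgroup. ADAMTS9 had 16.7, 10.2 and 14.0 FPKM in NC, 13.7, 17.6 and 15.2 in H8, and 11.4, 9.16 and 5.88 in H24. The H24 values lay below all H8 values and overlapped with NC. Its log2 fold change was -1.004 (SE 0.31, adjusted p = 0.341, edgeR) in H24/H8, at the edge of the fold threshold, and -0.65 (SE 0.30, adjusted p = 0.399) in H24/NC. The H24/H8 call was lost in 9 of 16 alternatives, in which the value nearest to 0 was -0.78, without H24 replicate 3, and another was -0.83, without H8 replicate 2. ADAMTS15 had 25.6, 17.3 and 29.8 FPKM in NC, 27.9, 14.5 and 26.8 in H8, and 10.4, 29.1 and 4.09 in H24. H24 replicate 2 was within the NC range and the other H24 libraries were below it. The log2 fold change of ADAMTS15 in H24/NC was -0.74 (SE 0.66, adjusted p = 0.663, edgeR), and without H24 replicate 2 it was -1.79 and passed the study's thresholds, as it did in H24/H8 (-1.88 in place of -0.79). Without H24 replicate 3 the values were nearer to 0, at -0.29 in H24/NC and -0.35 in H24/H8.

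ADAMTS4 and ADAMTS5 are the classical aggrecanases. ADAMTS4 had 4.79, 4.64 and 9.65 FPKM in NC, 6.64, 39.2 and 1.90 in H8, and 13.1, 15.9 and 8.15 in H24. The highest and the lowest of the 9 values were both from H8, where the SD (20.3) exceeded the mean (15.9). In H24/NC its log2 fold change was 0.95 (SE 0.39, adjusted p = 0.346, edgeR), with overlapping groups, and it passed the fold threshold without NC replicate 3 (1.36) or without H24 replicate 3 (1.18). In H8/NC it was 1.55 (SE 0.99, adjusted p = 0.509), which became -0.49 without H8 replicate 2 and 2.08, past the thresholds, without H8 replicate 3. In H24/H8 it was -0.62 (SE 0.99, adjusted p = 0.799), and without H8 replicate 2 it was 1.41. ADAMTS5 had the lowest mean FPKM of the members in every group, with 0.456, 0.560 and 0.785 FPKM in NC, 0.398, 0.428 and 0.563 in H8, and 1.06, 0.976 and 0.218 in H24. H24 held its 2 highest values and its lowest one, and the log2 fold change in H24/NC was 0.29 (SE 0.59, adjusted p = 0.868).

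ADAMTS2 removes the amino-terminal propeptide of fibrillar procollagens. It had 16.8, 19.1 and 23.8 FPKM in NC, 23.9, 33.7 and 24.0 in H8, and 27.5, 25.4 and 38.1 in H24. All 6 libraries from the HFC diet lay above all NC libraries, although H8 replicate 1 exceeded NC replicate 3 by little (23.9 against 23.8 FPKM). The log2 fold change was 0.59 (SE 0.26, adjusted p = 0.380, edgeR) in H24/NC and 0.61 (SE 0.24, adjusted p = 0.302) in H8/NC, under the fold threshold in both. An exact permutation test of the mean FPKM, two-sided, gave p = 0.1 for each, the smallest value that 3 libraries against 3 allow. ADAMTS12, whose known substrates include the cartilage matrix protein COMP, had 6.34 to 9.82 FPKM in NC, 5.94 to 7.42 in H8 and 3.93 to 9.53 in H24, and its log2 fold changes were between -0.26 and -0.07 in the 3 comparisons.

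As a share of the summed FPKM of the 7 ADAMTS members, ADAMTS1 took 55.3% to 63.0% in NC, 48.7% to 75.4% in H8, and 47.6%, 32.2% and 17.0% in H24. ADAMTS2 took 9.67% to 14.7% in NC, 7.50% to 15.3% in H8, and 19.8%, 19.8% and 52.4% in H24. ADAMTS2 was thus the leading ADAMTS member in H24 replicate 3, whereas ADAMTS1 led in the other 8 libraries. ADAMTS4 took 2.76% to 4.06% in NC, 0.996% to 17.8% in H8 and 9.43% to 12.4% in H24. The sum itself was 130 to 238 FPKM in NC, 191 to 319 in H8, and 139, 128 and 72.7 in H24, so a share can rise without a higher level.

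**Figure D3:**
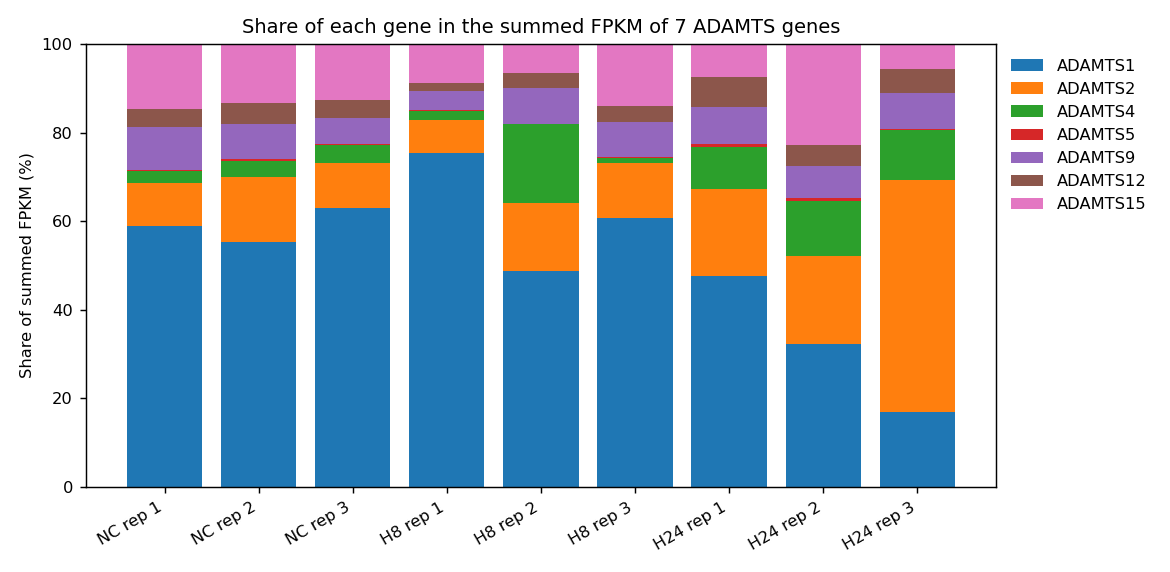
Share of each gene (vertical axis, percent) in the summed FPKM of the 7 ADAMTS members, with a bar for each of the 9 libraries. The ADAMTS1 part is 55.3% to 63.0% in NC, 48.7% to 75.4% in H8, and 47.6%, 32.2% and 17.0% in H24 replicates 1 to 3. ADAMTS4 is widest in H8 replicate 2, at 17.8%.

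ADAM8, a sheddase found mainly on leukocytes, had the widest spread of the members. It had 1.80, 0.829 and 1.84 FPKM in NC, 1.98, 0.516 and 1.03 in H8, and 1.67, 4.47 and 31.4 in H24. H24 replicate 1 was within the NC range, replicate 2 was above it, and replicate 3 was far above both. The log2 fold change was 3.07 (SE 1.05, adjusted p = 0.277, edgeR) in H24/NC and 3.23 (SE 1.09, adjusted p = 0.341) in H24/H8, while in H8/NC it was -0.22 (SE 0.51, adjusted p = 0.876). Without H24 replicate 3 the first 2 values were 1.05 and 1.27, and neither passed the thresholds. The H24/NC call was also lost without NC replicate 1 (3.21), NC replicate 2 (2.79) or NC replicate 3 (3.22), in which the value moved little, and at smaller values with the replicate number as a block (2.16) and with limma at pseudocounts of 0.1 (2.07) and 1 (1.67). The H24/H8 call was also lost without H8 replicate 2 (2.90) or H8 replicate 3 (3.12), with the block (2.53) and with limma at a pseudocount of 1 (1.90).

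ADAM17, the TNF-converting enzyme, had 4.74, 5.37 and 4.71 FPKM in NC, 5.33, 4.28 and 5.24 in H8, and 7.80, 5.46 and 16.6 in H24. In FPKM all H24 values lay above all NC and H8 values. H24 replicate 2 (5.46) exceeded the highest NC (5.37) and H8 (5.33) libraries by little. ADAM17 had 1457 counts in H24 replicate 2 and 2192 in H8 replicate 1. The total counts were 44094263 and 68855107, and the TMM scaling factors over the 9 libraries 1.006 and 0.958. Scaled by both, H24 replicate 2 lies below H8 replicate 1, so the order against H8 depends on the scaling. The order against NC was not compared in this way. The log2 fold change was 0.99 (SE 0.41, adjusted p = 0.355, edgeR) in H24/NC and 0.82 (SE 0.39, adjusted p = 0.393) in H24/H8, under the fold threshold in both, and 0.13 (SE 0.16) in H8/NC. In H24/NC it was 0.39 without H24 replicate 3, and it passed the thresholds without H24 replicate 1 (1.15) or H24 replicate 2 (1.27). With all libraries kept, it also passed them there with the filter at 1 FPKM (1.012) and with library-size scaling (1.011). In H24/H8 it passed them without H24 replicate 2 (1.08) and with library-size scaling (1.02), and was 0.25 without H24 replicate 3. ADAM10, the main protease of Notch receptor activation, had 2.19 to 2.86 FPKM in NC, 2.05 to 2.52 in H8, and 2.99, 1.71 and 4.42 in H24. Its log2 fold change was 0.28 (SE 0.36, adjusted p = 0.785) in H24/NC and -0.10 without H24 replicate 3. The summed FPKM of the 3 ADAM members was 8.39 to 9.42 in NC, 6.96 to 9.83 in H8, and 12.5, 11.6 and 52.4 in H24, and ADAM8 made up 59.9% of it in H24 replicate 3 against 9.89% to 20.2% in NC.

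**Figure D4:**
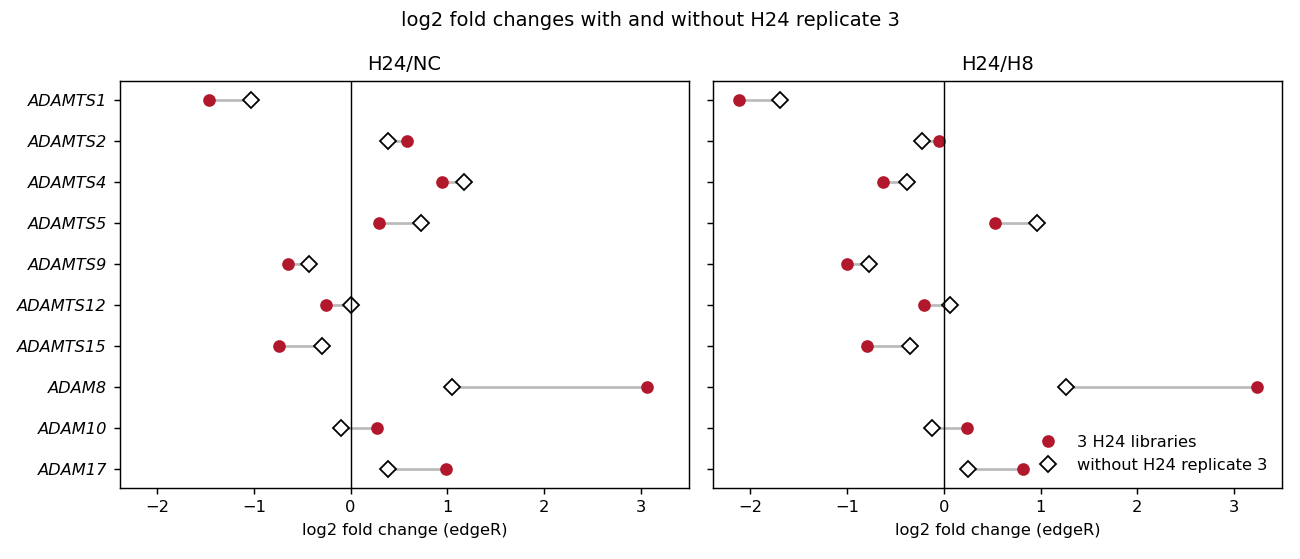
edgeR log2 fold change of each member (horizontal axis) in H24/NC and H24/H8 with all 3 H24 libraries (filled circles) and without H24 replicate 3 (open diamonds). The longest line is that of ADAM8, from 3.07 to 1.05 in H24/NC, and ADAMTS1 stays below -1 in both panels.

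Marker genes of several cell types were set beside these values, and no association between markers and members was computed. All 12 macrophage markers were up-regulated in H24/NC, 9 of 12 in H8/NC and 12 of 12 in H24/H8 by the study's thresholds, and TYROBP and SPI1 among them are genes that the study picked from these libraries. H24 replicate 3 had the highest macrophage sum and the highest ADAM8, ADAM10 and ADAM17 values of the 9 libraries. H8 replicate 1 (macrophage sum 357 FPKM) had 1.98 FPKM of ADAM8 and 5.33 of ADAM17, near the highest NC library in each. H24 replicate 1 (macrophage sum 590 FPKM) had 1.67 FPKM of ADAM8, within the NC range, and 7.80 of ADAM17, above it. The 7 neutrophil markers summed to 0.494 to 0.688 FPKM in NC, 2.78 to 4.52 in H8, and 8.25, 5.14 and 66.9 in H24, and the 9 T and B cell markers to 5.37 to 6.09, 1.999 to 4.50 and 13.2 to 26.7.

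The 10 smooth muscle markers were all lower in H24 than in NC in the fitted values (median log2 fold change -0.79). Of all tested genes, 50.6% were higher in that comparison. None of the 10 markers passed the study's thresholds in H24/NC. H24 replicate 3 had the lowest smooth muscle sum and the lowest ADAMTS1, ADAMTS5, ADAMTS9, ADAMTS12 and ADAMTS15 values of the 9 libraries. H24 replicate 2 had a smooth muscle sum (12209 FPKM) within the NC range and 41.3 FPKM of ADAMTS1, below every NC library, while its ADAMTS15 (29.1 FPKM) was near the top of the NC range. The 9 fibroblast markers summed to 2441 to 3185 FPKM in NC, 3833 to 6111 in H8 and 2540 to 3246 in H24, beside the ADAMTS2 values given above. The 8 endothelial markers summed to 69.6 to 172, 54.4 to 85.7 and 78.8 to 130 FPKM, and the 8 cartilage-like markers to 36.1 to 134, 29.2 to 136 and 33.0 to 116, with COL10A1 at 0 in every library. The part of these cell types in the results on the members was not tested.

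**Figure D5:**
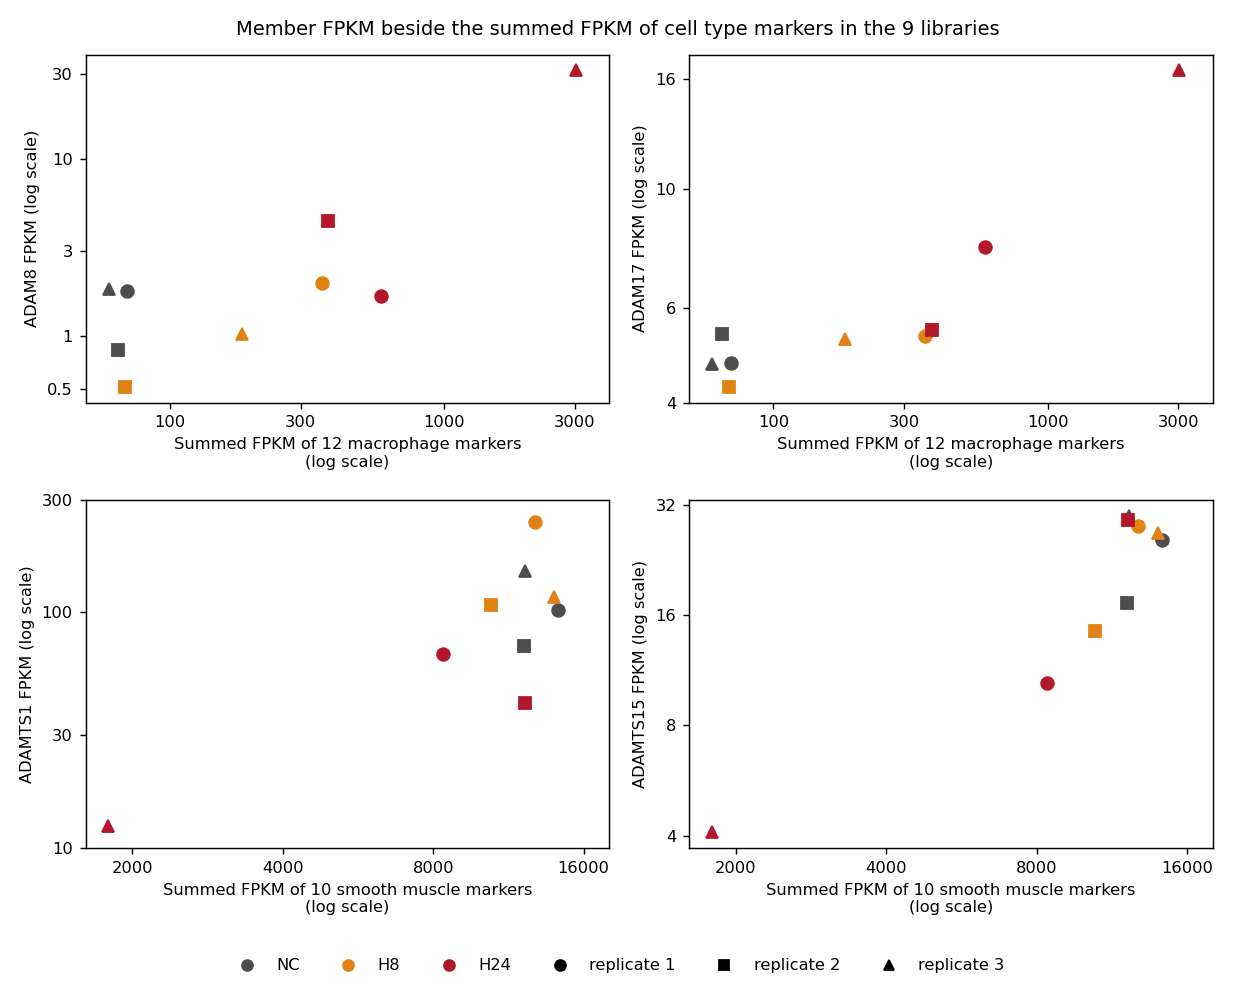
FPKM of ADAM8 and ADAM17 against the summed FPKM of 12 macrophage markers, and of ADAMTS1 and ADAMTS15 against that of 10 smooth muscle markers, in the 9 libraries, with log scales on all axes. H24 replicate 3 lies at the end of each panel, and H24 replicate 2 combines 41.3 FPKM of ADAMTS1 with a smooth muscle sum of 12209 FPKM.

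Relatives, partners and substrates of the members were counted from lists (chosen, like the members, with earlier results known). Beside the counts below, 9.95% of all tested genes were up-regulated and 1.52% down-regulated in H24/NC. In H8/NC 5.11% were up-regulated. No list was tested against these shares. Of 18 other ADAMTS and ADAMTS-like genes, 15 were tested in H24/NC, 1 was up-regulated and 2 were down-regulated, and the list's median log2 fold change was -0.44 against 0.01 over all tested genes. ADAMTS8 (matched by gene ID), a close relative of ADAMTS15 and the gene next to it in the RefSeq table of Sscrofa11.1, had 124, 72.4 and 93.2 FPKM in NC, 93.3, 18.1 and 135 in H8, and 18.0, 43.4 and 8.01 in H24. All H24 values were below all NC values (log2 fold change -2.06, SE 0.60, adjusted p = 0.210, edgeR), a call that held in all 6 fits without 1 library. ADAMTSL4, an ADAMTS-like protein without protease activity that binds to microfibrils, had 92.9 to 148 FPKM in NC, 32.9 to 48.8 in H8 and 23.4 to 73.4 in H24, and was down-regulated in H24/NC (-1.12, adjusted p = 0.347) and in H8/NC (-1.42, adjusted p = 0.114). ADAMTS14, which like ADAMTS2 trims procollagens, was up-regulated (1.18, adjusted p = 0.346). Without H24 replicate 3 the H24/NC values of ADAMTSL4 and ADAMTS14 were -0.75 and 0.86, and neither call held. In the other fits without 1 library, the ADAMTSL4 call held only without H24 replicate 2 (-1.40) and the ADAMTS14 call only without NC replicate 1 (1.62).

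Of 10 other ADAM genes, 7 were tested in H24/NC and 2 were up-regulated. ADAM28, which lymphocytes are known to express, had 0.300, 0.243 and 0.322 FPKM in NC, 3.87, 0.470 and 2.05 in H8, and 8.59, 2.08 and 33.2 in H24. ADAM12, a member induced in growing mesenchymal cells, had 0.243, 0.425 and 0.296 FPKM in NC and 1.15, 1.49 and 12.1 in H24. All H24 values of both genes lay above all NC values. The log2 fold changes were 5.64 (SE 1.02, adjusted p = 0.132) and 3.91 (SE 0.99, adjusted p = 0.157) in edgeR, or 4.15 and 2.01 without H24 replicate 3, and in H8/NC 2.98 (adjusted p = 0.187) and 1.11 (adjusted p = 0.233), past the study's thresholds. The H8/NC call of ADAM28 held in all 6 fits without 1 library, and that of ADAM12 was lost without NC replicate 1 (0.94) or H8 replicate 1 (0.998). In H8/NC 3 genes of this list were up-regulated, and 1 was called with limma at either pseudocount.

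Among 8 inhibitors and clearance receptors, 3 were up-regulated in H24/NC by the study's thresholds. They were TIMP1 (1.25, adjusted p = 0.206, edgeR), TIMP4 (1.85, adjusted p = 0.361) and the broad protease trap A2M (1.14, adjusted p = 0.324). The TIMP1 call was lost without H24 replicate 2 (0.79), the TIMP4 call without H24 replicate 1, H24 replicate 3, NC replicate 2 or NC replicate 3 (1.92, 1.296, 1.79 and 1.37), and the A2M call in every fit without 1 library but that without H24 replicate 3 (1.46). TIMP3 had 231, 252 and 179 FPKM in NC and 202, 257 and 68.3 in H24, with overlapping groups, a log2 fold change of -0.35 (SE 0.48, adjusted p = 0.798) and 0.04 without H24 replicate 3.

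Of 15 activation and trafficking partners, all tested, 3 were up-regulated in H24/NC. RHBDF2, the iRhom protein that carries ADAM17 to the surface of immune cells, had 5.80, 5.39 and 3.88 FPKM in NC, 7.40, 3.98 and 6.14 in H8, and 9.12, 11.8 and 38.8 in H24. The H24 values lay above all others, with a log2 fold change of 1.97 (SE 0.57, adjusted p = 0.210, edgeR) in H24/NC, or 1.04 without H24 replicate 3, and 1.59 (adjusted p = 0.341) in H24/H8. The tetraspanins TSPAN10 and TSPAN33, which help ADAM10 to leave the endoplasmic reticulum, had log2 fold changes of 3.62 (adjusted p = 0.170) and 2.56 (adjusted p = 0.255) in H24/NC. TSPAN10 kept its call without H24 replicate 3 (1.75). TSPAN33 lost it there (1.24) and without NC replicate 2 (2.48) or NC replicate 3 (2.36). The activating protease FURIN had 9.42 to 11.6 FPKM in NC and 8.22, 12.1 and 19.0 in H24 (log2 fold change 0.35, adjusted p = 0.699).

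Of 18 matrix substrates of ADAMTS proteases, 16 were tested and 2 were up-regulated in H24/NC. The median log2 fold change of these 16 was 0.30. VCAN, which encodes versican, had 7.61, 5.44 and 3.51 FPKM in NC, 9.32, 7.76 and 5.26 in H8, and 32.7, 26.4 and 35.2 in H24. All H24 libraries were above all others, and the value did not rest on H24 replicate 3 (log2 fold change 2.49, SE 0.34, adjusted p = 0.129, edgeR, or 2.40 without it). LUM, the small collagen-binding proteoglycan lumican, had 15.3 to 19.1 FPKM in NC and 145, 69.6 and 123 in H24 (2.69, SE 0.33, adjusted p = 0.126). ACAN, which encodes aggrecan, had 2.54, 5.38 and 1.66 FPKM in NC and 14.7, 10.3 and 0.933 in H24, with overlapping groups (1.38, SE 0.89, adjusted p = 0.548). It passed the thresholds without H24 replicate 3, at 1.92.

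Of 34 membrane substrates of ADAM10 and ADAM17, 29 were tested, 9 were up-regulated and 1 was down-regulated in H24/NC, with a median log2 fold change of 0.47. HBEGF, a growth factor precursor released by ADAM17, had 1.68, 1.91 and 1.80 FPKM in NC, 18.2, 9.07 and 5.86 in H8, and 10.3, 17.5 and 9.57 in H24. Both HFC diet groups lay above NC without overlap (2.77, SE 0.33, adjusted p = 0.126 in H24/NC and 2.75, SE 0.41, adjusted p = 0.0932 in H8/NC, edgeR). The adhesion molecule VCAM1 (2.15, adjusted p = 0.132), the macrophage growth factor receptor CSF1R (3.46, adjusted p = 0.132), the TNF receptor TNFRSF1B (2.15, adjusted p = 0.132) and TNF itself (2.49, adjusted p = 0.182) were up-regulated in H24/NC, and each kept its call in all 6 fits without 1 library. TNF was at a low level, 0.0400 to 0.0596 FPKM in NC, 0.0944 to 0.228 in H8 and 0.146 to 0.370 in H24. VCAM1 and TNF are genes the study picked from these libraries, and CSF1R also stands in the macrophage list. CX3CL1, a chemokine released by both proteases, had 42.6 to 54.8 FPKM in NC and 39.2 to 68.6 in H24 (-0.01, adjusted p = 0.989).

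The genes whose pattern over the 9 libraries was most like that of a member were found among 9740 named genes with a mean of at least 1 FPKM. The measure was Pearson's r of log2(CPM + 0.1), where CPM is the count scaled to library size and TMM factor. The points share libraries and depth, so the values are descriptions. ADAMTS1 was nearest to CREM (r = 0.976, or 0.950 without H24 replicate 3), a cAMP-responsive transcription regulator that had 22.8 FPKM in H8 replicate 1 and 4.32 in H24 replicate 3. ADAMTS4 was nearest to the cytokine IL6 (0.949, or 0.981), which had 40.7 FPKM in H8 replicate 2, the library with the highest ADAMTS4. ADAMTS9 was nearest to the hyaluronan and proteoglycan link protein HAPLN1 (0.986, or 0.991). ADAM8 was nearest to NCSTN (0.982, or 0.966), a subunit of gamma-secretase, and ADAM17 to the lysosomal sterol carrier NPC2 (0.987, or 0.909), which had 465 FPKM in H24 replicate 3. Further nearest genes were GRAMD1A (ADAMTS5, 0.932), KLHDC1 (ADAMTS12, 0.926), GFOD1 (ADAMTS15, 0.984) and ADSS (ADAM10, 0.975).

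Among the members themselves, ADAMTS1 and ADAMTS9 had an r of 0.868 (0.670 without H24 replicate 3). ADAM8 and ADAM17 had 0.833, which was 0.114 without that library. ADAMTS15 and ADAM17 had -0.915, or -0.682 without it. ADAMTS1 and ADAMTS5 lie next to each other on chromosome 13 of Sscrofa11.1, both on the minus strand, at chr13:190273999-190285720 and chr13:190357960-190411953, with 72.2 kb and no other gene of the table between them. Their r was 0.314, or -0.713 without H24 replicate 3, and their H24/NC log2 fold changes were -1.46 and 0.29.

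The other members lie apart from each other, namely ADAMTS2 at chr2:79182949-79406875, ADAMTS4 at chr4:89260459-89269244, ADAMTS9 at chr13:46033758-46206656, ADAMTS12 at chr16:19547007-19920513, ADAMTS15 at chr9:57127442-57152547, ADAM8 at chr14:141221178-141232306, ADAM10 at chr1:113289084-113412543 and ADAM17 at chr3:126795368-126864731. ADAM17 overlaps IAH1 on the opposite strand by 15289 bp. The use of strand in the counting is not given in the sources used here, so reads from this overlap cannot be assigned with certainty. In H24/NC the log2 fold change of IAH1 was 0.15, beside 0.99 for ADAM17.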

How the data were processed

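RNA-seq of the abdominal aorta gave 9 libraries, grouped as NC, H8 and H24 by their labels. The authors used HISAT 2.0 for mapping (Sscrofa11.1) and StringTie 1.3.0 for assembly, and deposited FPKM values of 21357 genes. Estimated counts per gene and library were deposited beside them, as whole numbers without depth normalization, whose derivation is not given in the sources used here. The submitters' processing notes also list Bowtie 0.12.2, whose role is not given there. Groups were compared pairwise with edgeR 4.0.16 in R 4.3.3 (counts as deposited, TMM, genes averaging 0.1 FPKM or more in the 6 libraries, two-sided quasi-likelihood test, Benjamini-Hochberg adjustment over all tested genes). The method had first been run on counts simulated from edgeR's own fitted dispersions. No simulated library stood apart from its group, so that run cannot show how the method handles such a library. FPKM values were used for levels, overlap of groups, marker sums and exact permutation tests. Depth was 44094263 to 75787978 counts, at which 3 counts correspond to 0.0396 to 0.0680 CPM without TMM factors (counting error only).

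The members and all gene lists were chosen with earlier results of these data known. All 10 members are named, and of each list at most 4 genes with the smallest p-values among those past the study's thresholds in H24/NC, plus TIMP3, ACAN, FURIN, TNF and CX3CL1 for their role. NOTCH1 and CXCL16, set for the same reason, were not matched in the table. Alternatives were median-ratio scaling, dropping the filter or raising it to 1 FPKM, fitting all 9 libraries together, blocking on the replicate number, DESeq2 1.42.0, limma 3.58.1 on log2(FPKM + 0.1) and log2(FPKM + 1), summing genes of one name, and each replicate left out. Scaling by library size only was added after the data were seen. Annotation columns, and the blood, histology and protein measurements, were not analysed here. Some items are not reported here.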

Additional observations from a re-analysis of the deposited data

Results flagged for a closer look

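ADAMTS1 was noted because on the scale of log2(FPKM + 0.1) all 3 H8 libraries lay above the NC mean and all 3 H24 libraries below it, although in plain FPKM H8 replicate 2 (107) was just under the NC mean (108). Its log2 fold change was -2.12 in H24/H8, a difference that was tested directly (adjusted p = 0.341, edgeR's quasi-likelihood test). ADAMTS9 was noted for the same pattern, with a log2 fold change of -1.004 in H24/H8 (adjusted p = 0.341, edgeR). For both genes H8/NC alone did not pass the study's thresholds, at 0.65 and 0.34.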

How the results depend on the processing

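Over 477 alternative values of the 30 member log2 fold changes, 402 kept their direction and their side of the thresholds, 36 changed the call and 39 changed sign. The values that changed sign, none of them called in the main test, were ADAM10 in H8/NC (-0.012 with median-ratio scaling and with DESeq2, -0.011 with all 9 libraries, -0.13 and -0.095 with limma at pseudocounts 0.1 and 1, -0.15 with library-size scaling, -0.077 to 0.11 without 1 replicate), ADAMTS15 in H8/NC (-0.094, -0.089 and -0.082 with limma at 0.1 and 1 and library-size scaling, -0.12 to 0.25 without 1 replicate), ADAM17 in H8/NC (-0.0017, -0.00087 and -0.0096 in the same order), ADAMTS2 in H24/H8 (0.0034 with all 9 libraries, 0.15 and 0.15 with limma, 0.17 with library-size scaling, -0.23 to 0.21 without 1 replicate), ADAMTS4 in H24/H8 (0.46 with the replicate block, 0.57 and 0.43 with limma, -1.16 to 1.41 without 1 replicate) and ADAMTS12 in H24/H8 (0.0084 with library-size scaling, -0.53 to 0.064 without 1 replicate). Without 1 replicate, ADAMTS12 in H24/NC ranged from -0.58 to 0.0075, ADAM10 from -0.10 to 0.55 in H24/NC and from -0.12 to 0.50 in H24/H8, and in H8/NC ADAMTS12 from -0.24 to 0.13, ADAMTS4 from -0.49 to 2.08 and ADAM8 from -0.82 to 0.096.

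Members called in H24/NC (2) were 0 with the replicate block, 1 with limma at either pseudocount and 0 to 3 without 1 replicate. Those in H8/NC (0) were 0 to 1 without 1 replicate, and those in H24/H8 (3) were 1 with limma at pseudocount 1 and 1 to 5 without 1 replicate. Of all genes, 1700 were called in H24/NC (855 with limma at pseudocount 1, 1132 to 2251 without 1 replicate), 1059 in H8/NC (618 with the filter at FPKM 1, 343 with limma at pseudocount 1) and 1519 in H24/H8 (694 with limma at pseudocount 1, 804 to 2091 without 1 replicate). In H8/NC, 733 genes were up- and 326 down-regulated, against 576 and 459 with library-size scaling and 454 and 505 with limma at pseudocount 0.1, and library-size scaling moved the median log2 fold change of all genes to -0.13 there and to 0.24 in H24/H8. The cause of these differences was not tested. The replicate block gave 1364, 950 and 1275 genes in the 3 comparisons. Deviations of same-numbered libraries had correlations of only -0.09 to 0.11. The best match was the same-numbered library for replicate 2 in the 3 comparisons and for replicate 1 in H8/NC, but not otherwise. Whether the numbers pair samples cannot be decided from these values. Library-size scaling was chosen after seeing the data. Depth was lowest behind ADAM8 and ADAMTS5, whose counts per library began at 121 and 130.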
